A study of Mus musculus with 16 samples.

Results

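The genes described are the 3 members of the ZFP36 family expressed in the liver (Zfp36l1, Zfp36 and Zfp36l2), the 5 other AU-rich element binders Elavl1, Hnrnpd, Khsrp, Tia1 and Tial1, and the CCR4-NOT subunits Cnot1 and Cnot7. They were taken by gene symbol from a table of 35275 Ensembl gene IDs, and each of the 10 symbols matched 1 ID. All 10 passed the filter on low values that left 11298 genes for testing. RNA was sequenced from the livers of WT mice and of mice with a liver-specific knockout of Zfp36l1 (LKO), and mice of each genotype received a control diet or one with ethanol. Each of the 4 groups (WT control, WT ethanol, LKO control and LKO ethanol) had n = 4 libraries. The study's title concerns the control of Fgf21 mRNA turnover by ZFP36L1 and alcoholic fatty liver. What drives the deletion, the exons removed, the alleles the WT mice carry, and the strain, sex, age, diet composition and feeding time were not given in the sources used here. Nor was it stated that each library came from its own animal, so the p-values measure the spread between these libraries, which may be technical.

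AU-rich elements are stretches rich in adenine and uridine in the 3′ untranslated region (3′UTR) of short-lived messenger RNAs, among them those of cytokines and growth regulators. ZFP36 proteins bind such elements through CCCH zinc fingers and recruit the CCR4-NOT complex, which shortens the poly(A) tail and starts decay. Other proteins bind the same kind of element with other outcomes. ELAVL1 (HuR) protects transcripts from decay, HNRNPD (AUF1) and KHSRP mostly hasten it, and TIA1 and TIAL1 hold back translation. CNOT1 is the scaffold of CCR4-NOT and a docking site for ZFP36 proteins, and CNOT7 is one of its deadenylases.

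The 3′UTRs of the ZFP36 family members carry the family's own target word. In the GENCODE M21 annotation of mouse build GRCm38, the 3′UTRs of Zfp36l1, Zfp36 and Zfp36l2 each held 3 copies of TATTTAT, of which 1 copy in each lay within the longer word TTATTTATT. The longest annotated 3′UTR of each gene was used, only the transcript strand was searched, and copies may overlap. Of the kept genes with an annotated 3′UTR, 29.2% held TATTTAT at least once, 3.59% held it at least 3 times and 7.73% held TTATTTATT. These shares were not matched for length. The 3′UTRs of Zfp36l1, Zfp36, Zfp36l2 and Elavl1 had 1835, 774, 1822 and 4218 bases, against a median of 1113 for kept genes. The Elavl1 3′UTR held 8 copies of TTATTTATT, most of which overlapped another. Tia1, Tial1 and Cnot7 held 1 copy of TATTTAT each, whereas Hnrnpd, Khsrp and Cnot1 held none. The windows below show 1 copy of the longer word, in capitals, in each of the 4 transcripts that held it. Further overlapping copies in the Elavl1 window stand in lower case. They lie on the minus strand at chr12:80108168-80108194 (Zfp36l1), chr7:28376952-28376978 (Zfp36), chr17:84184915-84184941 (Zfp36l2) and chr8:4285789-4285815 (Elavl1). A match is a description of the sequence and was not tested for binding.
Zfp36l1: actgttggaTTATTTATTttagaaatt
Zfp36: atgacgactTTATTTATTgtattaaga
Zfp36l2: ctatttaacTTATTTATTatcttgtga
Elavl1: tcatgaaaaTTATTTATTtatttattt

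Values are FPKM, read counts divided by gene length and library total, which set genes on a scale per length. Totals of 15 libraries were at least 19069828 reads, and that of WT ethanol library 2 was 9884479. This library stood apart in other ways. Mitochondrial transcripts made up 22.5% of its reads against 3.64 to 6.97% elsewhere, and its median Spearman correlation with the other libraries was 0.691 against 0.905 to 0.951. The 6 endothelial markers summed to 12.8 FPKM in it against at least 31.2 elsewhere, the 6 stellate markers to 16.3 against at least 36.6, and the 5 cholangiocyte markers to 75.0 against at most 28.6. The T cell markers summed to 4.71 in it against 0.476 to 3.34 elsewhere, and the B cell markers to 0.328 to 3.13 over all libraries. The part of RNA quality and cell mixture in its values was not tested, and results are given with and without it. The 6 hepatocyte markers summed to between 41832 and 72380 FPKM in the 16 libraries. In whole liver, fewer cells of a type and less RNA per cell cannot be told apart.

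In WT livers on the control diet, Zfp36 was the most abundant of the 10 transcripts at 48.2 ± 13.5 FPKM (mean ± SD, n = 4). Its lowest library, at 32.9, lay above the highest value of any other of the 10 genes in that group, which was 25.5 for Zfp36l1. Zfp36l2 (15.9 ± 3.93), Zfp36l1 (14.9 ± 7.55), Tial1 (12.5 ± 2.95), Khsrp (10.5 ± 4.57) and Cnot1 (10 ± 1.41) came next, and each overlapped its neighbour in this order. Hnrnpd (8.18 ± 2.31), Cnot7 (6.89 ± 0.316), Elavl1 (4.86 ± 1.03) and Tia1 (2.12 ± 0.272) were lower. Tia1, at 1.82 to 2.46, did not overlap Elavl1, at 3.89 to 6.10.

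**Figure D1:**
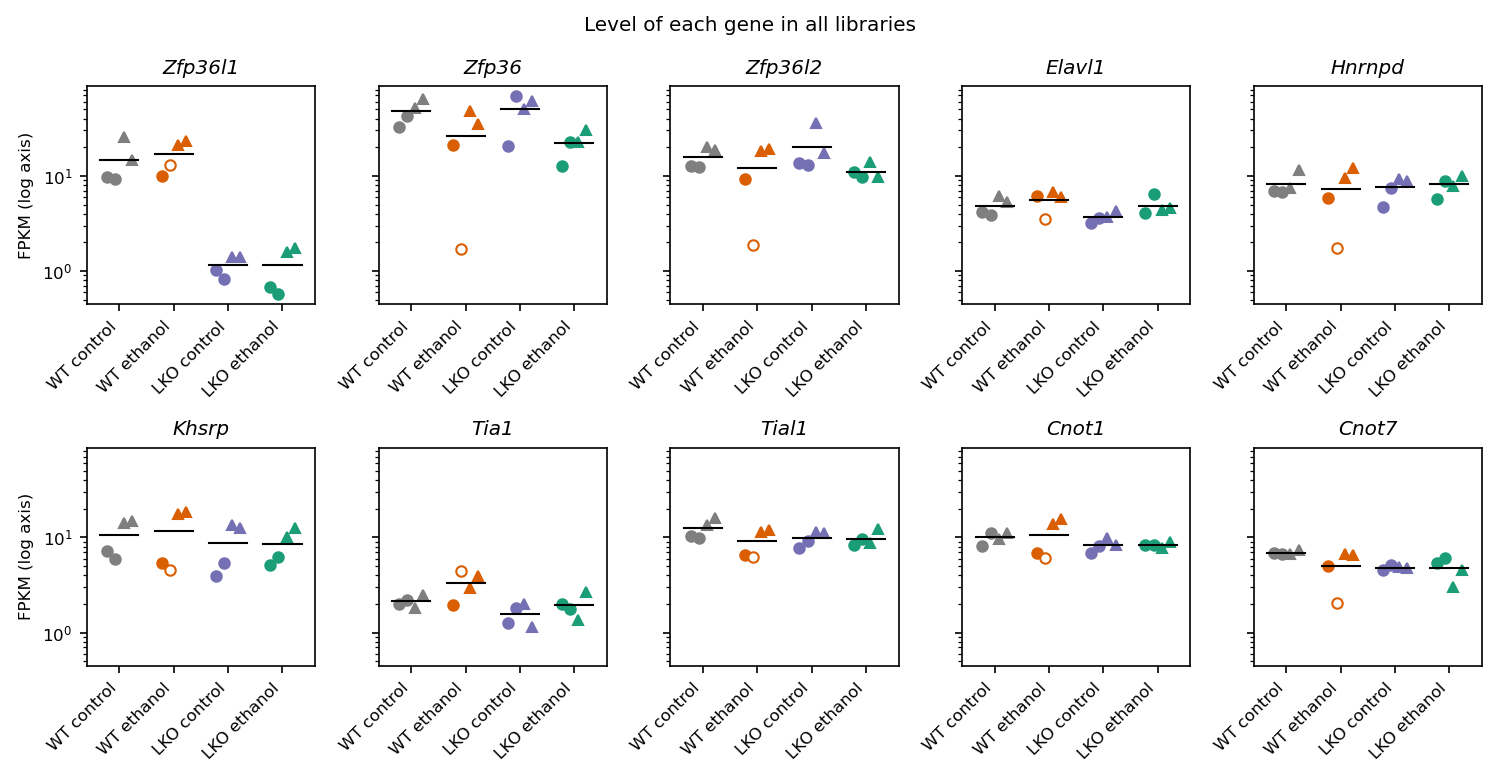
FPKM of the 10 genes (log axis) in the 4 groups. Each symbol is 1 library, circles for libraries 1 and 2 and triangles for libraries 3 and 4, the open circle is WT ethanol library 2, and the bar is the group mean. Zfp36l1 lies at 0.572 to 1.76 in LKO and at 9.30 to 25.5 in WT.

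The deleted gene comes first, because it checks the labels. Zfp36l1 (ENSMUSG00000021127, chromosome 12, 80107754 to 80113013, minus strand) measured 9.79, 9.30, 25.5 and 14.8 FPKM in the WT control libraries 1 to 4 and 9.87, 13.2, 20.99 and 23.3 in the WT ethanol libraries. The LKO libraries gave 1.03, 0.836, 1.42 and 1.40 under the control diet, then 0.688, 0.572, 1.60 and 1.76 under ethanol. No LKO library reached a WT library on either diet, where 9.25% of all tested genes did not overlap between genotypes under the control diet and 2.69% under ethanol. The LKO mean was 7.89% of the WT mean under the control diet and 6.85% of it under ethanol. On the scale used for testing, log2(FPKM + 1), which understates changes of low genes, the Zfp36l1 difference between LKO and WT was −2.77 under the control diet (SE 0.32, limma adjusted p = 0.00148) and −3.02 under ethanol (SE 0.32, adjusted p = 0.000428). Over both diets the difference was −2.89 (SE 0.23, adjusted p = 4.53e-06).

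The remaining Zfp36l1 signal was not at the limit of counting. It rested on 36 to 130 reads per LKO library. The table gives 1 value per gene, so whether these reads cover the deleted exons cannot be seen. The signal was 0.572 to 1.03 FPKM in LKO libraries 1 and 2 and 1.40 to 1.76 in LKO libraries 3 and 4, with no overlap. In LKO ethanol libraries 1 to 4 the 6 Kupffer cell and macrophage markers summed to 139.1, 307.2, 50.9 and 85.9 FPKM. The part of other liver cells and of library order in the remaining signal was not tested.

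Zfp36l1 did not pass the test for ethanol. The ethanol difference was 0.21 in WT (95% interval −0.47 to 0.88) and −0.05 in LKO (−0.72 to 0.63), and the diet groups overlapped in both genotypes. Over both genotypes it was 0.08 (−0.40 to 0.56, adjusted p = 0.887).

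The genotype comparison asks whether the other 9 genes differed when Zfp36l1 was lowered. None of the other 9 passed the test in LKO against WT on either diet or over both. Of the 10, Zfp36l1 alone was called, against 0.00885% of all tested genes under the control diet, 0.0797% under ethanol and 0.142% over both diets. The median difference over both diets was −0.23 for the 10 genes, the deleted Zfp36l1 included, and −0.08 for all 11298 genes. When WT ethanol library 2 was left out, all 10 values, that of Zfp36l1 included, were below 0, with a median of −0.33 beside −0.18 for all genes. This depended on scaling. With quantile normalization or upper quartile scaling added, Zfp36l2 and Hnrnpd stayed above 0. At an unadjusted p under 0.05, 2 of the 10 passed over both diets, Zfp36l1 itself and Tia1 (10.4% of all genes did). There limma's voom on recovered reads likewise called only Zfp36l1 (0.0885% of all genes).

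The paralogs Zfp36 and Zfp36l2 did not show a called rise in LKO. Zfp36 (ENSMUSG00000044786, chromosome 7, 28376784 to 28380253) measured 32.9, 43.1, 52.2 and 64.6 FPKM in WT control libraries 1 to 4 and 20.7, 69.2, 50.9 and 60.8 in LKO control libraries. The WT range lay within the wider LKO range, whose lowest library was below every WT library, and the difference was −0.02 (95% interval −1.41 to 1.37). Zfp36l2 (ENSMUSG00000045817, chromosome 17, 84183931 to 84187947) measured 12.7, 12.5, 20.03 and 18.6 in WT control and 13.7, 12.9, 36.3 and 17.2 in LKO control libraries. Apart from 1 high LKO library, these too overlapped, with a difference of 0.22 (−0.80 to 1.23). Over both diets the differences were 0.14 for Zfp36 (−0.84 to 1.13) and 0.21 for Zfp36l2 (−0.51 to 0.93). Without WT ethanol library 2 they turned to −0.31 (−0.88 to 0.25) and −0.09 (−0.56 to 0.37), so no direction is given, and a difference of the size of those bounds was not excluded.

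The family's summed level shows what was left in the knockout. Zfp36l1 made up 18.3 ± 5.398% of the summed FPKM of the 3 genes in WT control livers and 1.82 ± 0.797% in LKO control livers (SD, n = 4 each). The sum itself was 79.0 ± 22.2 and 71.6 ± 24.4 FPKM, and the 2 groups overlapped. On ethanol the sum was 55.4 ± 32.8 in WT (68.2 ± 24.9 without library 2) and 34.4 ± 7.37 in LKO. All 4 LKO ethanol libraries (24.6 to 41.6) lay below 3 of the LKO control libraries and overlapped only the lowest, at 35.4. In WT ethanol library 2, Zfp36l1 was 78.6% of a sum of 16.7 FPKM, against 24.0 to 30.2% in the 3 other libraries of that group.

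**Figure D2:**
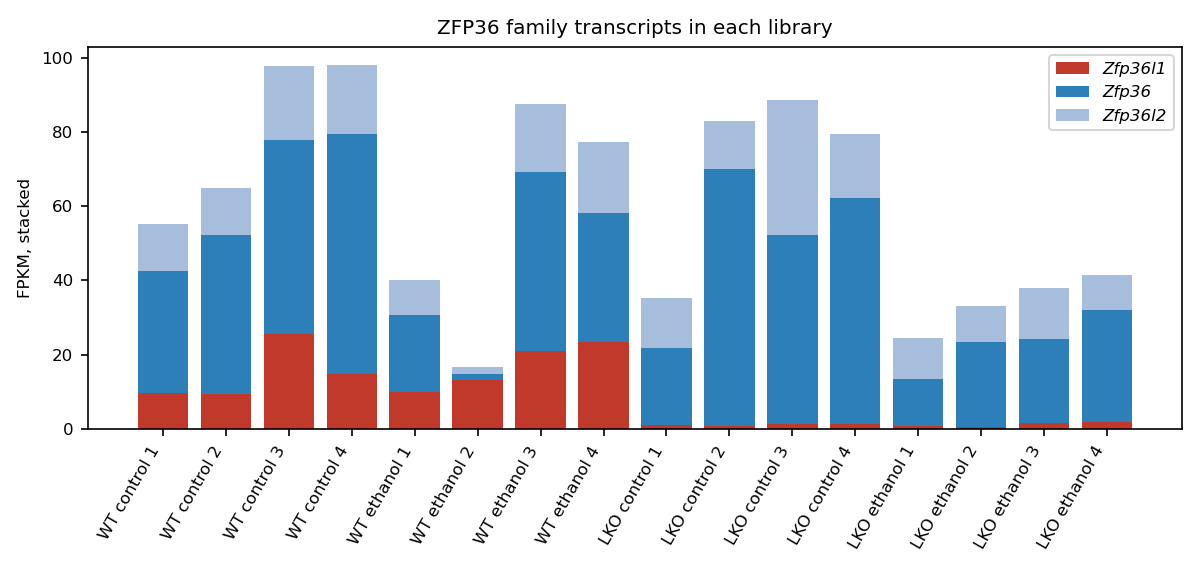
Stacked FPKM of Zfp36l1, Zfp36 and Zfp36l2 in each of the 16 libraries. The Zfp36l1 portion is nearly absent in LKO libraries, the LKO ethanol sums lie between 24.6 and 41.6, and WT ethanol library 2 has the lowest sum, 16.7.

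The ethanol comparison asks how the diet moved these genes. Zfp36 (tristetraprolin), the family member induced most quickly by many stimuli, had a lower mean on ethanol in both genotypes, but it did not pass the test with all libraries and passed it without WT ethanol library 2. On ethanol it measured 20.9, 1.69, 48.2 and 34.7 FPKM in WT libraries 1 to 4 and 12.8, 22.9, 22.6 and 30.2 in LKO libraries. In LKO, 3 of the 4 control libraries lay above every ethanol library and the other one, at 20.7, lay among them. In WT the diets overlapped, and library 2, with 30 Zfp36 reads, was far below the rest. Over both genotypes the all-library difference was −1.25 (SE 0.47, 95% interval −2.23 to −0.26, adjusted p = 0.115). Without library 2 it was −0.79 (SE 0.27, −1.36 to −0.22, adjusted p = 0.0472), and the ethanol mean was 55.7% of the control mean. With all libraries scaled to an equal upper quartile it was also called, at −1.30 (adjusted p = 0.0446). That fit called 11.6% of all genes in either direction and 5.86% lower. None of the 10 genes was called in ethanol over both genotypes with all libraries, against 7.78% of all genes, with 1 at an unadjusted p under 0.05 and 0 called by voom. Without library 2 Zfp36 was the 1 gene called, against 20.5% of all genes in either direction and 5.7% lower.

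By genotype, the Zfp36 difference was −1.08 in LKO (SE 0.66, adjusted p = 0.706) and −1.41 in WT (SE 0.66, adjusted p = 0.247), the latter −0.50 without library 2 (SE 0.39, adjusted p = 0.446). All groups share an estimate of spread for each gene, so the SE in LKO also carries WT ethanol library 2. In LKO the smallest adjusted p on leaving out single libraries was 0.112. No gene among the 10 was called in WT alone (4.18% of all genes were) or in LKO alone (0.425%). At an unadjusted p under 0.05 the counts were 1 in WT and 0 in LKO, and voom on recovered reads called 0 in each. The interaction of genotype and diet for Zfp36 was 0.33 (−1.64 to 2.30) and turned to −0.58 (−1.71 to 0.55) without library 2. No interaction was called for any of the 11298 genes (0%), with 362 genes (3.2%) at an unadjusted p under 0.05 and 0 calls by voom.

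Zfp36l2 passed no test in the all-library fit. On ethanol it measured 9.27, 1.89, 18.2 and 19.2 FPKM in WT libraries 1 to 4 and 11.04, 9.78, 13.9 and 9.65 in LKO. The diets overlapped in both genotypes, and WT ethanol library 2 was again the lowest of all. The difference over both genotypes was −0.68 (SE 0.34, adjusted p = 0.259), and −0.38 without that library (SE 0.22, adjusted p = 0.248).

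A second feature of the libraries bears on these tests. Libraries 1 and 2 of every group, numbered in record order, differed from libraries 3 and 4, and no label names a batch. Hepatocyte markers summed to 65909 to 72380 FPKM in libraries 1 and 2 (61770 in WT ethanol library 2) and to 41832 to 63169 in libraries 3 and 4. The mitochondrial share of reads was 4.7 to 6.97% (WT ethanol library 2 apart) and 3.64 to 4.75%, and the part of both in the split was not tested. Among the 10 genes it was plainest in Khsrp (a KH-domain protein), whose 8 values in libraries 1 and 2 were 3.92 to 7.18 FPKM and in libraries 3 and 4 were 10.2 to 18.7, with no overlap. Zfp36l1 did not overlap within either genotype. In libraries 1 and 2 and then 3 and 4 it was 9.30 to 13.15 and 14.8 to 25.5 FPKM in WT. In LKO it was 0.572 to 1.03 and 1.40 to 1.76. Within libraries 1 and 2, the Zfp36 ethanol difference over both genotypes was −1.72 (−0.96 without WT ethanol library 2), and within libraries 3 and 4 it was −0.78. A fit without WT ethanol library 2 and with a term for this split called 3 of the 10 genes in ethanol over both genotypes, where it called 32.6% of all genes. These were Zfp36 at −0.84 (SE 0.21, adjusted p = 0.00817), Zfp36l2 at −0.43 (SE 0.15, adjusted p = 0.0457) and Elavl1 at 0.31 (SE 0.10, adjusted p = 0.0345). In LKO alone it called Zfp36 at −1.08 (adjusted p = 0.0292) and Zfp36l2 at −0.69 (adjusted p = 0.0485), where it called 10.7% of all genes. The split was found in these same data, so these calls are a description.

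**Figure D3:**
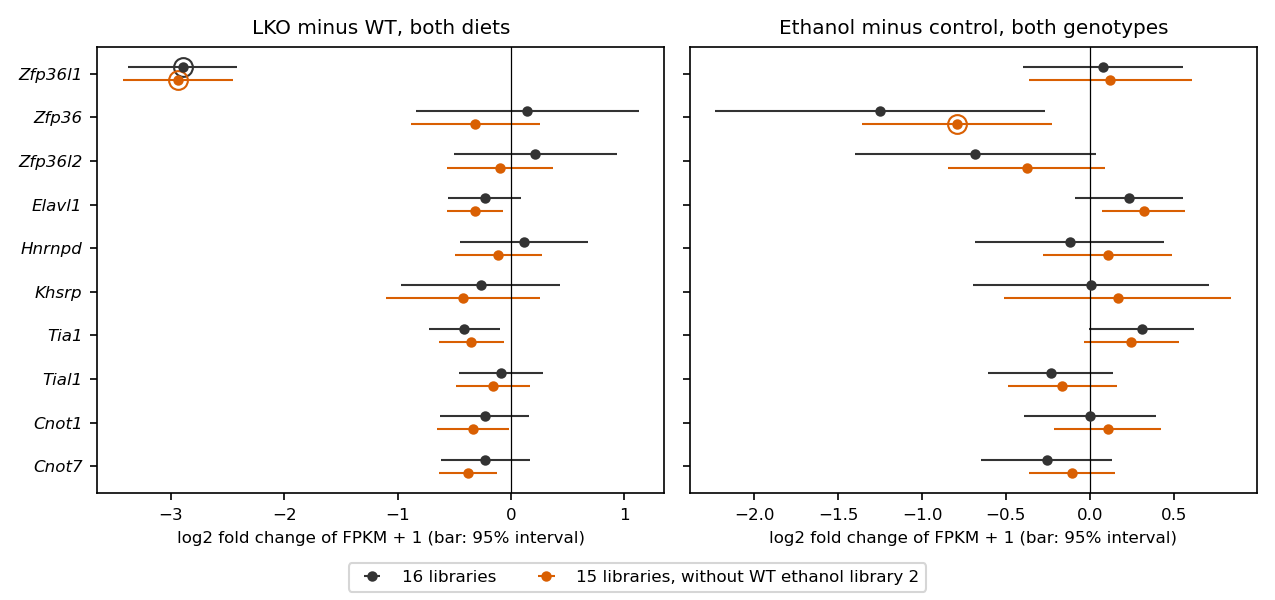
Log2 fold change of FPKM + 1 for the 10 genes, LKO minus WT over both diets (left) and ethanol minus control over both genotypes (right), with 95% intervals, for 16 libraries (dark) and for 15 without WT ethanol library 2 (orange). Rings mark adjusted p under 0.05. Zfp36l1 is ringed on the left in both fits, and Zfp36 is ringed on the right only in the fit to 15 libraries, at −0.79.

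Among the other binders, Elavl1, Tia1 and, barely, Khsrp lay on the opposite side of 0 from Zfp36 for ethanol over both genotypes. None of them was called with all libraries. Elavl1 measured 4.14, 3.89, 6.10 and 5.32 FPKM in WT control libraries, 6.13, 3.49, 6.71 and 6.05 in WT ethanol, 3.21, 3.61, 3.70 and 4.23 in LKO control and 4.09, 6.40, 4.37 and 4.6 in LKO ethanol. In LKO 3 of the 4 ethanol libraries exceeded every control library. In WT the ethanol libraries other than library 2 lay at the top of the control range or above it. The difference over both genotypes was 0.23 (SE 0.15, adjusted p = 0.409) with all libraries and 0.32 (SE 0.12, adjusted p = 0.0622) without library 2.

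The remaining binders passed no test on either factor in the all-library fit. Tia1 measured 2.12 ± 0.272 FPKM in WT control, 3.29 ± 1.10 in WT ethanol, 1.56 ± 0.408 in LKO control and 1.94 ± 0.542 in LKO ethanol. It was the nearest to a call between genotypes, at −0.41 over both diets (95% interval −0.72 to −0.10, adjusted p = 0.354). The Tia1 ethanol difference over both genotypes was 0.248 to 0.395 on leaving out single libraries, never called (smallest adjusted p = 0.0781). Its relative Tial1 ranged from 6.25 to 16.2 over the 16 libraries, with an ethanol difference of −0.23 (−0.61 to 0.14). Hnrnpd ranged from 1.76, in WT ethanol library 2, to 12.1, and its differences of 0.12 for genotype and −0.12 for ethanol both changed sign without that library, to −0.11 and 0.11. For Khsrp, with its large split, the genotype difference was −0.27 (−0.97 to 0.44) and the ethanol difference 0.01 (−0.69 to 0.71).

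Of the CCR4-NOT subunits, Cnot7 separated the genotypes on the control diet without passing the test. It measured 6.82, 6.62, 6.76 and 7.34 FPKM in WT control libraries and 4.57, 5.09, 4.91 and 4.72 in LKO control libraries, with no overlap. It was the only one of the 10 besides Zfp36l1 without overlap on that diet, where 9.25% of all genes did not overlap. The difference was −0.44 (SE 0.26, adjusted p over 0.99), beside a median of −0.10 for all genes on that diet, which quantile normalization moved to −0.00231. That SE rests on the spread in all groups, and leaving out single libraries gave adjusted p-values down to 0.425. On ethanol it measured 4.97, 2.05, 6.71 and 6.52 in WT and 5.37, 6.05, 3.02 and 4.55 in LKO, where the genotypes overlapped. Over both diets the difference was −0.23 (−0.62 to 0.16), and −0.38 without WT ethanol library 2 (−0.63 to −0.12, adjusted p = 0.113). That fit with the split term called it (−0.38, adjusted p = 0.0451), where it called 11.1% of all genes and the median of all genes was −0.17. Cnot1 ranged from 6.05 to 15.7 FPKM, and its genotype difference was −0.23 (−0.62 to 0.16) and its ethanol difference 0.00 (−0.39 to 0.39).

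The counts for the other enzymes of mRNA decay stand beside the 7.78% of all genes called for ethanol over both genotypes. Of 13 other CCR4-NOT subunits and adaptors, 1 rose and none fell, a share near that background. This was Btg2, an antiproliferative adaptor of the deadenylases that is itself an early response gene, at 1.65 (SE 0.50, adjusted p = 0.0499). Of 15 exosome genes, which form the 3′ to 5′ decay machinery, Ttc37 rose (0.44, SE 0.13, adjusted p = 0.0447). Both calls sat at the threshold. Leaving out any of 13 single libraries ended the Btg2 call and any of 12 ended the Ttc37 call.

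Of 17 genes for decapping and 5′ decay, 1 fell, again near the background of 7.78%, and this was Lsm6. Lsm6 encodes a subunit of the ring that binds deadenylated ends and, in the nucleus, of the ring on U6 RNA. It measured 8.08 to 10.3 FPKM in WT control and 4.17 to 5.87 in WT ethanol, 7.23 to 10.6 in LKO control and 3.31 to 4.59 in LKO ethanol. The diets did not overlap in either genotype, where 10.1% of all genes did not overlap between diets in WT and 12.3% in LKO. The differences were −0.82 in WT (SE 0.19, adjusted p = 0.0213), −1.02 in LKO (SE 0.19, adjusted p = 0.0251) and −0.92 over both (SE 0.13, adjusted p = 0.000725). Over both genotypes it was called whichever single library was left out. The WT call ended without any of 4 single libraries and the LKO call without any of 5.

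None of 8 other deadenylase and poly(A)-binding genes and none of 17 other binders of unstable mRNA was called in that contrast, against 7.78% of all genes, with 1 and 0 at an unadjusted p under 0.05 and 0 calls in both lists by voom. The smallest p among the deadenylase genes was that of Pabpc4 at 0.78 (SE 0.31, adjusted p = 0.142). Leaving out single libraries moved Pabpc4 between 0.537 (without WT ethanol library 2) and 0.993 (without WT ethanol library 1, adjusted p = 0.0285), and only the latter was a call. Among the binders the smallest p was that of Fubp1 at 0.43 (SE 0.23, adjusted p = 0.292). Without WT ethanol library 2 Fubp1 was called, at 0.63 (SE 0.15, adjusted p = 0.00787), where 20.5% of all genes were. The medians of these 5 lists, from −0.17 to 0.07, stood beside a median of 0.02 over all genes. Between genotypes over both diets no gene of the 5 lists was called, with 8 of 70 tested genes at an unadjusted p under 0.05, near the 10.4% of all genes, and 0 called by voom. Without WT ethanol library 2, 1 of the other binders, Celf2, was called (adjusted p = 0.0494), where 1.07% of all genes were. Celf2 is named here after its value was seen.

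Of 13 kinase, phosphatase and 14-3-3 genes that act on ZFP36 proteins, 2 rose with ethanol and none fell, against 4.59% of all genes higher. The kinase MAPKAPK2 (MK2), activated by p38, phosphorylates ZFP36 so that it binds 14-3-3 proteins and recruits the deadenylases less. Mapkapk2 measured 15.5 to 19.7 FPKM in WT control, 31.0 to 51.8 in WT ethanol, 13.2 to 16.1 in LKO control and 18.9 to 44.1 in LKO ethanol. The diets did not overlap in WT (10.1% of all genes did not) or in LKO (12.3%). Over both genotypes it rose by 1.13 (SE 0.18, adjusted p = 0.00151). Its relative Mapkapk3 rose by 0.58 (SE 0.14, adjusted p = 0.0214), a call that ended without LKO control library 1 or WT control library 2 (adjusted p = 0.0516 and 0.0527). The other 11 were not called, and the list's median was 0.13.

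Zfp36 is usually classed with the immediate early genes, which answer stimuli within minutes to hours. Of 16 others tested, 12 passed the filter on low values in the control libraries alone. Of these 12, 7 rose and none fell with ethanol over both genotypes, against 4.59% of all genes higher, and their median was 1.21. Without the filter 5 of the 12 were called (1.64% of all genes were called higher), and voom likewise called 5 (4.5%). The other 4 (Atf3, Fos, Klf4 and Nr4a1) reached 1 FPKM in at most 1 control library, so they entered the test through ethanol libraries and had to be higher there. Of these 4, Atf3 and Nr4a1 were called, and their calls support nothing further. Jund, an AP-1 subunit, went from 13.2 ± 3.87 FPKM over the 8 control libraries to 47.2 ± 21.9 over the 8 ethanol libraries, with no overlap (1.67, SE 0.23, adjusted p = 0.000602). Atf3, a stress-induced transcription factor, measured 0.670 ± 0.281 and 8.21 ± 6.13 in the same libraries. Egr1, a zinc finger factor, rose by 1.83 (SE 0.37, adjusted p = 0.00577), and Klf6 by 1.48 (SE 0.28, adjusted p = 0.0040).

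Without WT ethanol library 2, 11 of the 12 rose and their median was 1.36, against 14.8% of all genes higher. That library held the lowest value of its group for 15 of the 16 genes. In LKO ethanol, library 2 held the highest value for 12 of the 16, and without it 5 of the 12 were called, against 7 with all libraries, where the share of all genes called higher went from 4.59% to 2.87%. This library also had the highest sums in its group of macrophage (307.2 FPKM), endothelial (94.4), stellate (116.7), cholangiocyte (21.9), T cell (2.10) and neutrophil (20.6) markers. Neutrophil markers moved with the diet as well. The 5 markers, of which 3 passed the filter and Ly6g had a median of 0, summed to 0.938 to 6.13 FPKM (median 3.82) in the 8 control libraries and to 2.65 to 20.6 (median 10.7) in the 8 ethanol libraries, which overlapped. The B cell sums went the other way, from a median of 1.59 to 0.67, with none of the 4 markers passing the filter. Control and ethanol medians were 67080 and 58043 FPKM for hepatocyte markers, 83.1 and 107.2 for stellate and 23.5 and 17.4 for cholangiocyte markers. For macrophage markers they were 197.4 and 141.1, for endothelial 58.0 and 54.3 and for T cell markers 2.79 and 1.87. The diets overlapped in each of these lists. The part of these cells in the early gene values was not tested. In WT alone 2 of the 12 were called (Jund and Klf6), against 2.58% of all genes higher, and Atf3 and Nr4a1 of the other 4. The Klf6 call ended without any of 5 single libraries, Atf3 without any of 2 and Nr4a1 without any of 13. In LKO alone 0 of the 12 were called, with 6 at an unadjusted p under 0.05 (9.19% of all genes) and 0 by voom. With WT ethanol library 2 left out of the fit, 9 of the 12 were called in WT and 4 in LKO, where 7.23% and 2.22% of all genes were called higher. No early gene was called for the interaction, so a difference between the genotypes in this response was not shown.

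The 1 early gene called neither with 16 nor with 15 libraries was Dusp1, the phosphatase that ends p38 signalling and a gene named here after its value was seen. It measured 25.6 ± 9.92 FPKM over the control libraries and 13.7 ± 7.87 over the ethanol libraries, a difference of −1.03 (SE 0.42, adjusted p = 0.154), or −0.65 (SE 0.28, adjusted p = 0.114) without WT ethanol library 2. Zfp36 and Dusp1 had values below 0 in both fits, while the other 11 of the 12 early genes that passed on control libraries had values above 0.

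**Figure D4:**
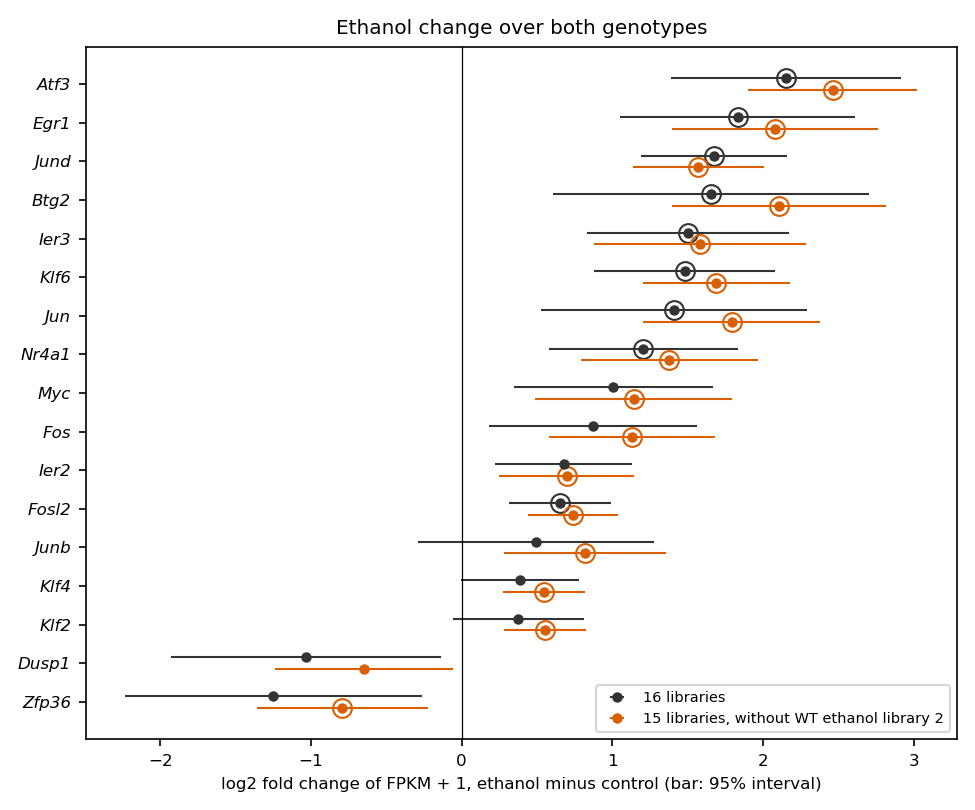
Ethanol minus control over both genotypes, log2 fold change of FPKM + 1 with 95% intervals, for Zfp36 and 16 immediate early genes with 16 libraries (dark) and with 15 (orange). Rings mark adjusted p under 0.05. Atf3 is at the top at 2.15, and Dusp1 (−1.03) and Zfp36 (−1.25) lie below 0. Atf3, Fos, Klf4 and Nr4a1 passed the filter only through ethanol libraries.

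The Zfp36 promoter was searched for a pair of words bound by early response factors. In the RefSeq promoters on GRCm38.p6, which gave an entry for 7 of the 10 genes, the bases before the RefSeq start of Zfp36 contain a CArG box, the site of serum response factor, at 58 to 49 bases before the start, and the EGR word GCGGGGGCG at 105 to 97 bases before it. Among 32851 mouse promoters, searched on both strands over 250 bases before the start, 1.47% held a CArG box, 2.57% held the EGR word and 0.0365% held both. The 2 words do not overlap. The RefSeq start, at 28379228, lies 27 bases downstream of that of the shorter GENCODE transcript, and the longer one starts further upstream, at 28380253, so the window lies within the GENCODE gene span given above. Of 13 of the 16 tested early genes with an entry, 0 held a CArG box and 4 held the EGR word in the same window. Bases further upstream were not searched. The window at chr7:28379229-28379348, minus strand, is shown because Zfp36 had a difference opposite in sign to most early genes. Both words stand in capitals, and a match says nothing of binding.
Zfp36: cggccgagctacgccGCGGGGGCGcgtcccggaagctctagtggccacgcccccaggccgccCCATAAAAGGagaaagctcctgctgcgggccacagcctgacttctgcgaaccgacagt

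**Figure D5:**
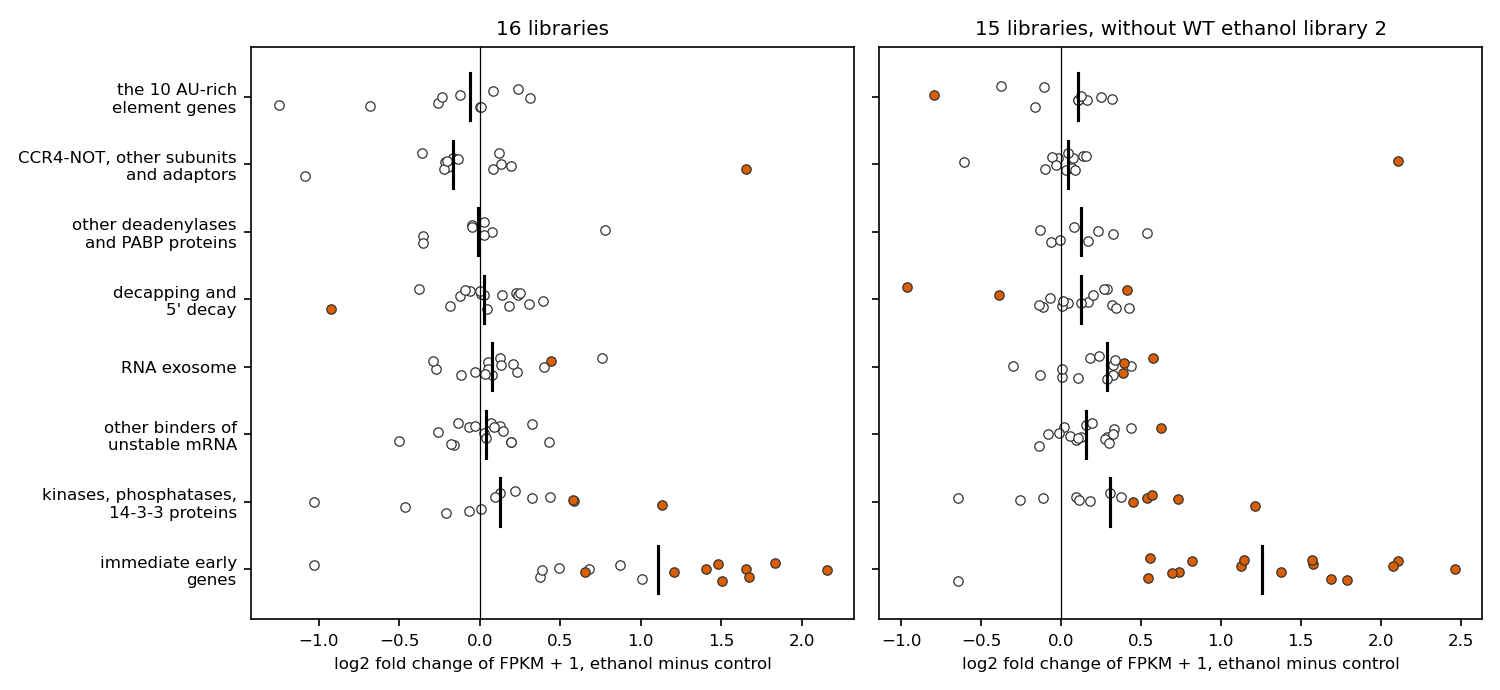
Ethanol minus control over both genotypes, log2 fold change of FPKM + 1, for the 10 genes and 7 lists of related genes, in 16 libraries (left) and 15 (right). Each circle is 1 gene, filled where adjusted p was under 0.05, and the bar is the list's median. The 16 immediate early genes, 4 of which passed the filter only through ethanol libraries, have a median of 1.11 on the left panel and 1.26 on the right.

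The genes whose pattern was most like that of each family member are given as a description. Over all 16 libraries, Zfp36l1 correlated most with Rbm14 (Pearson r = 0.901, and 0.904 over the 15 libraries without WT ethanol library 2), Tfdp2 (0.885 and 0.883), Steap2 (0.873 and 0.912), Rcan2 (0.863 and 0.884) and Ndrg3 (0.848 and 0.847). Zfp36 correlated most with Clcn2 (0.959 and 0.901), Klhl21 (0.949 and 0.846), C1ra (0.948 and 0.848), Tesk2 (0.945 and 0.841) and St13 (0.945 and 0.831). For Zfp36l2 the closest were Mcoln1 (0.924 and 0.786), Rbl2 (0.923 and 0.814), Mtus1 (0.917 and 0.762), Ubr2 (0.916 and 0.775) and Tom1 (0.915 and 0.764). The Zfp36l2 values fell the most without that library. The points share libraries, depth and the split between libraries, and the Zfp36l1 pattern is in the main that of genotype.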

How the data were processed

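Liver RNA was sequenced in 16 libraries, 4 for each combination of genotype and diet. The deposited table holds FPKM values per Ensembl gene made by the authors. The submitters' processing notes name fastp, STAR 2.6.1, HTSeq, DESeq2 and mouse build mm10, with no role or order. The libraries of each group were numbered in record order, which pairs nothing. Gene symbols were found for 34490 of 35275 IDs.

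Genes at an FPKM of at least 1 in at least 4 libraries were kept (11298). Limma 3.58.1 in R 4.3.3 was fitted to log2(FPKM + 1) with a pseudocount of 1, group means and a trended prior, and p-values were two-sided, Benjamini-Hochberg adjusted over all kept genes within a contrast and called under 0.05. The spread of each gene was estimated over all groups together, so the SE of a contrast also reflects libraries outside it. Whole reads could be recovered from the steps of the FPKM values in 100% of cases (tolerance 0.1 reads, 20520 IDs above 0 in at least 4 libraries) and served voom. Recovered totals were 9884479 to 24768501 reads.

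All 10 genes are named. From each related list, genes called in a contrast are named, at most the 4 with the smallest adjusted p, or, where a list had no call, up to 2 with the smallest p for ethanol. The genes and lists were chosen with earlier results of these data known. Alternatives covered pseudocount, filter, scaling, weights, voom, the model, the split between libraries and each library left out. The summed level of 1 list of cell type markers is not reported here.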

Additional observations from a re-analysis of the deposited data

Results flagged for a closer look

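Hnrnpd in WT control library 4 measured 11.62 FPKM, against 6.773 to 7.401 in the group's other 3 libraries. The gap to the nearest library was 0.870 of the group's range, above Dixon's 95% critical value for 4 samples. The 10 genes in 4 groups gave 40 such groups, and chance puts about 1 in 20 past that value.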

How the results depend on the processing

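The Zfp36l1 difference between LKO and WT kept its direction and its call in every alternative run. Leaving out each library in turn gave −3 to −2.75 over both diets, −2.94 to −2.48 under the control diet and −3.23 to −2.85 under ethanol. No paired analysis was possible because no replicate number is shared between groups in the labels, and nothing states that neighbouring numbers in the titles mark pairs. The alternatives that left out WT ethanol library 2 together with quantile normalization or upper quartile scaling were chosen after seeing the data. The cause of the changes below was not tested. Under array weights, the weight of WT ethanol library 2 was 0.0418 and the highest, of WT ethanol library 3, was 5.

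Counts of called genes moved most. For LKO against WT under the control diet, 1 gene was called in the reported fit. The count was 9 without WT ethanol library 2 with quantile normalization, 9 with the split term, 7 with upper quartile scaling, 260 with array weights, 13 with only the groups compared, 2 with quantile normalization, and 1 to 5 on leaving out single libraries. Under ethanol, 9 became 178 and 5 (library 2 out, with the split term or upper quartile scaling), 3465 (array weights), 3 (no filter), 3 (only the groups compared), 5 (upper quartile scaling), 5 (voom), and 1 to 387. Over both diets, 16 became 62, 1255 and 68 (library 2 out, with quantile normalization, split term and upper quartile scaling), 3848 (array weights), 5 (no filter), 10 (voom), and 8 to 121. For ethanol in WT, 472 became 1098, 2229 and 961 (library 2 out, in the same order), 4334 (array weights), 283 (no filter), 58 (only the groups compared), 932 (quantile normalization), 776 (split term), 763 (upper quartile scaling), and 146 to 1071. These calls were 292 higher and 180 lower as reported, 470 and 462 with quantile normalization and 363 and 400 with upper quartile scaling. For ethanol in LKO, 48 became 501, 1206 and 531, then 869, 18, 248, 105, 95 and 103 in that same order of settings, and 6 to 409. For ethanol over both genotypes, 879 became 2255, 3684 and 2224 (library 2 out), 4147 (array weights), 1452 (quantile normalization), 1389 (split term), and 519 (without LKO ethanol library 2) to 2312 (without WT ethanol library 2). The interaction count was 0, 506 with array weights, and 0 to 6 without single libraries.

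Of the 10 genes, array weights called 5 for LKO against WT under ethanol (30.7% of all genes), 6 over both diets (34.1%), 3 for ethanol in WT (38.4%) and 1 for ethanol over both genotypes (36.7%), which was Elavl1 and not Zfp36. Without WT ethanol library 2 and with the split term, 2 were called for LKO against WT over both diets (11.1% of all genes), 2 for ethanol in LKO (10.7%) and 3 for ethanol over both genotypes (32.6%). For the last contrast, the same library left out with quantile normalization or upper quartile scaling gave 1 each (20% and 19.7%). Upper quartile scaling alone gave 1 (11.6%). Single libraries left out gave 0 (4.59% to 9.79%), or 1 without WT ethanol library 2 (20.5%). Early genes called for ethanol, of which 4 passed the filter only through ethanol libraries, were 15 with library 2 out and the split term (11 of the other 12, against 23.3% of all genes higher), 15 with array weights (11 of the 12, against 28%), and 6 (5 of the 12, 2.87%) to 15 (11 of the 12, 14.8%) without single libraries.

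The values whose sign changed follow. Without WT ethanol library 2, and with quantile normalization, split term and upper quartile scaling in turn, Zfp36 between genotypes was −0.24, −0.26 and −0.18 over both diets, −0.435, −0.50 and −0.38 under ethanol, and −0.40, −0.47 and −0.40 for the interaction. Zfp36l2 under ethanol was −0.20, −0.305 and −0.18. With the split term, Zfp36l2 over both diets was −0.0442, Hnrnpd −0.0712 between genotypes and 0.0678 for ethanol. Tial1 between genotypes was 0.00595 with quantile normalization. Zfp36l1 for ethanol over both genotypes was −0.000167 with quantile normalization and −0.000932 with upper quartile scaling, and Cnot1 −0.0332 and −0.0287. Zfp36 under the control diet was 0.018 with upper quartile scaling, with library 2 or without it. Array weights gave Zfp36 −0.46 over both diets, 0.0789 under the control diet, −1 under ethanol and −1.08 for the interaction, Zfp36l2 −0.27 over both diets, −0.60 under ethanol and 0.23 for ethanol in WT, Hnrnpd −0.19 between genotypes and 0.21 for ethanol, Zfp36l1 0.12 for ethanol in LKO and Noct 0.0406 for ethanol. For ethanol over both genotypes, quantile normalization and upper quartile scaling with all libraries gave Khsrp −0.015 and −0.0184 and Cnot1 −0.0203 and −0.0231, and Cnot1 was −0.00189 with a pseudocount of 0.1 and −0.00367 with voom. Those settings gave the Zfp36l2 interaction 0.0711 and 0.0705.

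Leaving out single libraries changed the sign of these differences. Zfp36 between genotypes ranged from −0.31 to 0.385 over both diets, −0.22 to 0.35 under the control diet, −0.605 to 0.79 under ethanol and −0.58 to 0.82 for the interaction. Zfp36l2 ranged from −0.0946 to 0.37, −0.10 to 0.375, −0.41 to 0.53 and −0.62 to 0.31 in the same order. Hnrnpd ranged from −0.11 to 0.265 between genotypes and −0.27 to 0.11 for ethanol. For ethanol over both genotypes, Khsrp ranged from −0.14 to 0.165, Cnot1 from −0.10 to 0.11 and Zfp36l1 from −0.00778 to 0.22, and Zfp36l1 for ethanol in LKO from −0.18 to 0.0898. Of 580 values of 56 single-gene results under other settings, 496 kept direction and side of the threshold, 41 changed sign, 22 gained and 21 lost the call. Of 896 with a library left out, the counts were 796, 40, 3 and 57.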

Other observations

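Within groups, some of the 10 genes varied together over the 16 libraries, as a description of libraries that share depth and the split between libraries 1 and 2 and libraries 3 and 4. Pearson's r of the deviations from group means was 0.936 for Zfp36 and Hnrnpd (0.820 over the 15 libraries without WT ethanol library 2), 0.933 for Khsrp and Tial1 (0.918) and 0.821 for Zfp36l1 and Khsrp (0.835). For Zfp36 and Zfp36l2 it was 0.806 and dropped to 0.373 without that library. For Zfp36 and Tia1 it was −0.201 and turned to 0.416.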
